A study of Arabidopsis thaliana with 12 samples.

Results

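The transcripts described here are those of 2 histone H3 loci, AT1G09200 and AT1G13370, and of FBL17 (AT3G54650), a gene of the cell cycle, in Arabidopsis thaliana plants exposed to proline. They are 3 of the 691 loci that the array measured under a single gene name, out of 3438 features in all, where each locus with its own probe, and each probe that is unnamed or shared between genes, counts as a feature. Each was read by 1 probe, and no probe that lists several genes included any of them. The members were chosen because the 2 H3 loci were lower and FBL17 was higher with proline, so their differences between the groups are given as a description, with no test.

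Wild-type plants of the ecotype Wassilevskija received 100 mM proline for 48 h (6 samples, named proline 1 to 6). The comparison was 6 samples labelled as water (water 1 to 6), for which no duration was read from the labels. Total RNA of each sample was measured on an expression array. Tissue, age and growth conditions are not in the labels, so no tissue marker was checked. Whether the samples are separate plants, cultures or repeat measurements is not stated either, and a p-value therefore reflects the spread among these 12 samples alone, which may be technical.

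Histone H3 is a core protein of the nucleosome, the spool on which nuclear DNA is wound. In Arabidopsis the H3.1 form is made mainly while DNA is being copied and is placed on the new DNA by the chromatin assembly factor CAF-1, whereas H3.3 forms are exchanged into chromatin outside replication as well. AT1G09200 (also called HTR2) encodes H3.1, and several other loci encode the same protein, so its probe may also read transcripts of near-identical copies. AT1G13370 (also called HTR6) encodes an H3.3-like variant. FBL17 is the F-box subunit of an SCF ubiquitin ligase that marks inhibitors of cyclin-dependent kinases (the KRP proteins) for degradation, which lets cells enter the phase of DNA synthesis. It is best known from the male germline, and its transcription is known to be under E2F control.

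The deposited values were relative intensities between 0 and 61.4, with array medians of the values above 0 between 0.0335 and 0.0963 in proline samples and between 0.0325 and 0.0812 in water samples. Zeros were set to missing before log2 transformation and quantile normalization between arrays. Probes listed at 0 numbered 352 to 424 per proline sample and 153 to 235 per water sample. Samples of a group numbered 1 and 2, 3 and 4, or 5 and 6 resembled each other most, and are referred to as set 1, set 2 and set 3. The nearest sample was the partner in its set for 12 of 12 samples. Partners differed by a median of 0.235 to 0.413 log2 units in absolute value, and other samples of a group by 0.495 to 0.846. The samples could therefore not be taken as independent.

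AT1G09200, the H3.1 gene, was lower in proline samples. Its deposited intensity ran from 0.0120 through a median of 0.0411 to 0.0679 in proline samples, and from 0.0772 through a median of 0.127 to 0.157 in water samples. The lowest proline sample was proline 3 and the highest was proline 4, its partner in set 2. No proline sample reached the lowest water sample, a pattern that 2.10% of the 3045 tested features shared on the deposited scale. In bulk RNA, fewer cells that make a transcript and less transcript per cell cannot be told apart. On the normalized log2 scale the level averaged -4.78 ± 1.07 in proline samples and -2.99 ± 0.21 in water samples (SD, n = 6 each). The difference of these means was -1.79 ± 0.45 (SE), a level 3.46-fold lower with proline. This SE and those below count every sample as independent, which the samples were not, so they may be too small.

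AT1G13370, the H3.3-like gene, was lower as well. Its deposited intensity ran from 0.0267 through a median of 0.0476 to 0.0752 in proline samples, and from 0.0800 through a median of 0.138 to 0.160 in water samples. Here proline 1 was the lowest sample, and the groups again did not overlap, although proline 4 came close to water 5. The normalized log2 level averaged -4.50 ± 0.73 in proline samples and -2.98 ± 0.11 in water samples (SD, n = 6 each). The difference was -1.52 ± 0.30 (SE), or 2.87-fold lower with proline.

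FBL17 was higher in proline samples, at a low signal. Its deposited intensity was 0.0831, 0.0346, 0.0456, 0.0180 and 0.0177 in proline 2 to 6, against 0.0435, 0.00766, 0.0137, 0.00290 and 0.00763 in water 2 to 6. The gene was listed at 0 in proline 1 and in water 1, so number 1 gives no difference. Sample 2 was the highest of its group in both groups, and on this scale the groups overlapped, since water 2 lay above proline 3, 5 and 6. On the normalized log2 scale the level averaged -4.73 ± 0.28 in proline samples and -6.69 ± 1.11 in water samples (SD, n = 5 each). The difference was 1.95 ± 0.51 (SE), or 3.87-fold higher with proline, over the samples above 0.

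**Figure D1:**
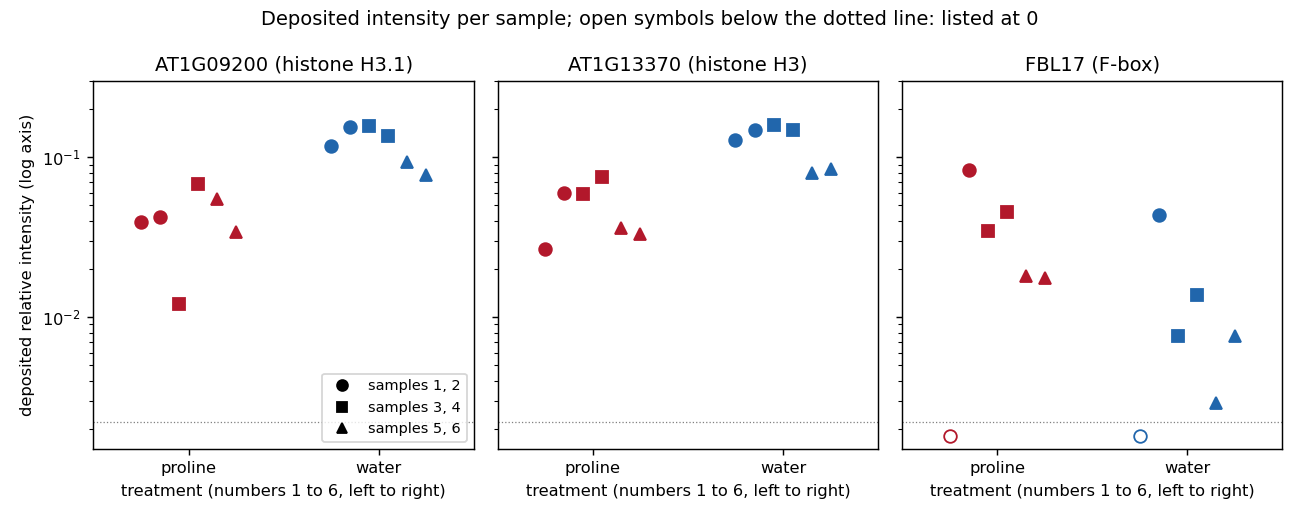
Deposited relative intensity (log axis) of the 3 genes in each proline and water sample, with samples 1 to 6 from left to right in each group and symbols for the sets. The H3 genes of all proline samples lie below all water samples, while for FBL17 water 2, at 0.0435, lies above proline 3, 5 and 6, and sample 1 of both groups is listed at 0.

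In water, FBL17 was among the dimmest probes of most arrays. Its normalized value exceeded that of 3.26% to 11.7% of the features in water 3 to 6 and of 27.8% in water 2, and of 30.3% to 45.3% in proline 2 to 6. Signal over background could not be computed from the deposited values. When values of 0 were kept and 0.01 was added to every value, which shrinks differences of dim probes, the log2 difference of FBL17 was 1.25, that of AT1G09200 -1.34 and that of AT1G13370 -1.18.

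After normalization every proline value of AT1G09200 and of AT1G13370 was below every water value, a pattern shown by 5.55% of the 3045 tested features. For FBL17 every proline value was above every water value, as in 3.38% of the tested features. This leaves out proline 1 and water 1, where FBL17 was listed at 0. The members were chosen on this contrast, so nothing is read from any of these shares. The gaps were small for AT1G09200, with the highest proline value at -3.50 and the lowest water value at -3.30, and for FBL17, with the lowest proline value at -4.97 and the highest water value at -5.08. For AT1G13370 the highest proline value was -3.98 and the lowest water value -3.19. With arrays centred on their median the groups overlapped for AT1G09200 (highest proline value 0.68, lowest water value 0.64) and for FBL17 (lowest proline value -0.97, highest water value -0.90), and without normalization they overlapped for FBL17. AT1G13370 showed no overlap with quantile normalization, median centring, cyclic loess or no normalization.

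**Figure D2:**
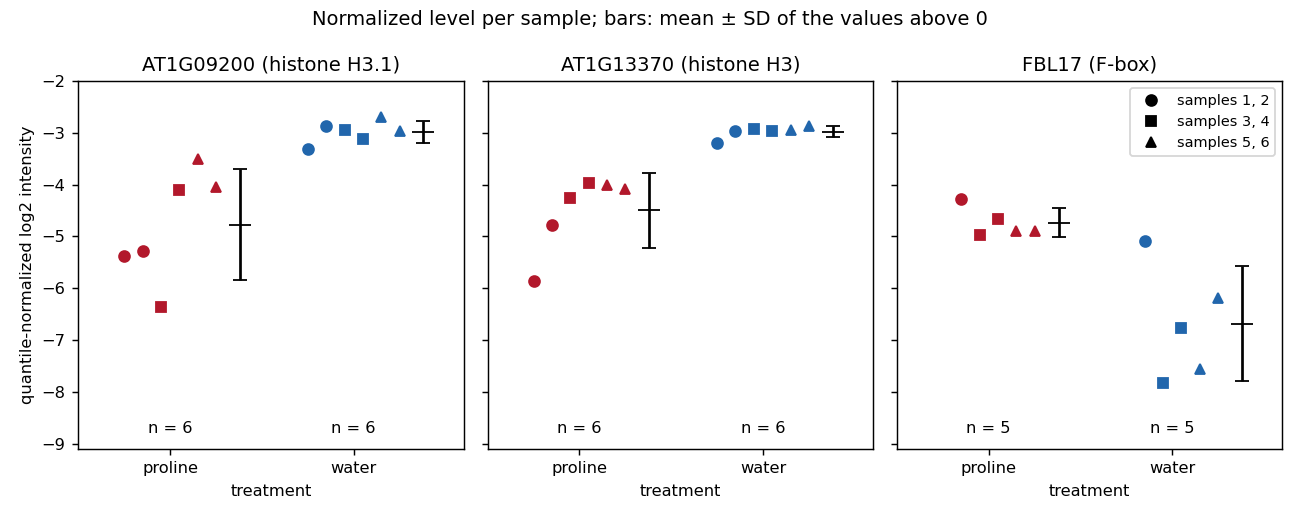
Quantile-normalized log2 intensity of the 3 genes in each proline and water sample, with bars for the mean ± SD of the values above 0. The H3 genes are tightly grouped in water (SD 0.21 and 0.11) and scattered in proline (SD 1.07 and 0.73). The 5 values of FBL17 above 0 are close together in proline (SD 0.28) and scattered in water (SD 1.11). Sample 1 of both groups, listed at 0 for FBL17, is left out. Without normalization the SDs of FBL17 were 0.94 in proline and 1.43 in water.

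The spread within the groups differed between the genes. In water samples the SD of AT1G13370 was 0.11, and 0.787% of the 2921 features with 6 water values had a lower one. The SD of AT1G09200 in water was 0.21, with 5.58% of these features lower. Both H3 genes thus had a small SD in water, where the median SD was 0.58. In proline samples their SDs of 1.07 for AT1G09200 and 0.73 for AT1G13370 exceeded those of 87.7% and 74.9% of the 2426 features with 6 proline values. For FBL17 the SD was the smaller one in proline samples. Its SD of 0.28 in proline samples was low among the 425 features with 5 proline values (0.706% lower, median 0.97). Its SD of 1.11 in water samples was near the middle of the 237 features with 5 water values (54.0% lower, median 1.04). With median centring or cyclic loess, at most 11.1% of features had a lower SD in water than AT1G09200 and at most 4.96% a lower one than AT1G13370. Without normalization, where the median SD in water was 0.75, the SDs of 0.41 for AT1G09200 and 0.44 for AT1G13370 left 13.2% and 15.8% of features lower. In proline samples without normalization the SD of AT1G09200 was 0.87 (61.7% lower) and that of AT1G13370 0.59 (30.3% lower), below the median of 0.76. FBL17 then had an SD of 0.94 in proline samples (22.6% lower, median 1.35) and of 1.43 in water samples (61.2% lower, median 1.25). The members were chosen on these same values, and such a choice can favour a small spread within a group. Nothing is therefore read from the shares of features with a lower SD.

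After normalization, part of the scatter in proline samples was shared by the H3 genes. Set 1 had the lowest proline mean in both, at -5.33 for AT1G09200, where set 2 was close at -5.23, and -5.32 for AT1G13370. Set 3 had the highest, at -3.77 and -4.05. Without normalization this order was not kept. AT1G13370 then lay at -4.80 and -4.91 in proline 5 and 6, below its -4.08 and -3.73 in proline 3 and 4. Other normalized values were not shared. For AT1G09200, proline 3 lay at -6.36 and its partner proline 4 at -4.10, a gap of 2.26 on the log2 scale. The median gap of these partners over all features was 0.35, and 94.6% of features had a smaller gap than AT1G09200. For AT1G13370 the same partners differed by 0.28, while proline 1 at -5.86 and proline 2 at -4.78 differed by 1.08, more than 77.7% of features. In AT1G09200 these set 1 partners differed by 0.09, with proline 1 at -5.37 and proline 2 at -5.28. The lowest value of AT1G09200, in proline 3, thus had no counterpart in AT1G13370, which lay at -4.26 there. Among partners that were both above 0, the largest gap of FBL17 was 1.38, between water 5 and water 6. Set 1 gave no gap for this gene, since sample 1 of both groups was listed at 0. Its partner, sample 2, held the highest deposited value of each group (0.0831 in proline 2 and 0.0435 in water 2).

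Within the replicate numbers of the labels, AT1G09200 was lower with proline in 6 of 6 numbers and AT1G13370 in 6 of 6. Of the 2778 features with at least 5 such differences, 18.0% were lower in every one. FBL17 was higher in 5 of 5 numbers with a value, as were 11.3% of these features in all of theirs. The differences of AT1G09200 were -2.07, -2.40, -3.41, -0.98, -0.80 and -1.09 for numbers 1 to 6. Number 3 had the lowest difference, and numbers 4, 5 and 6 were near -1. The differences of AT1G13370 were -2.66, -1.82, -1.34, -1.0, -1.07 and -1.22 for the same numbers, lowest in numbers 1 and 2. For FBL17 they were 0.81, 2.86, 2.12, 2.68 and 1.30 for numbers 2 to 6, smallest in number 2.

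**Figure D3:**
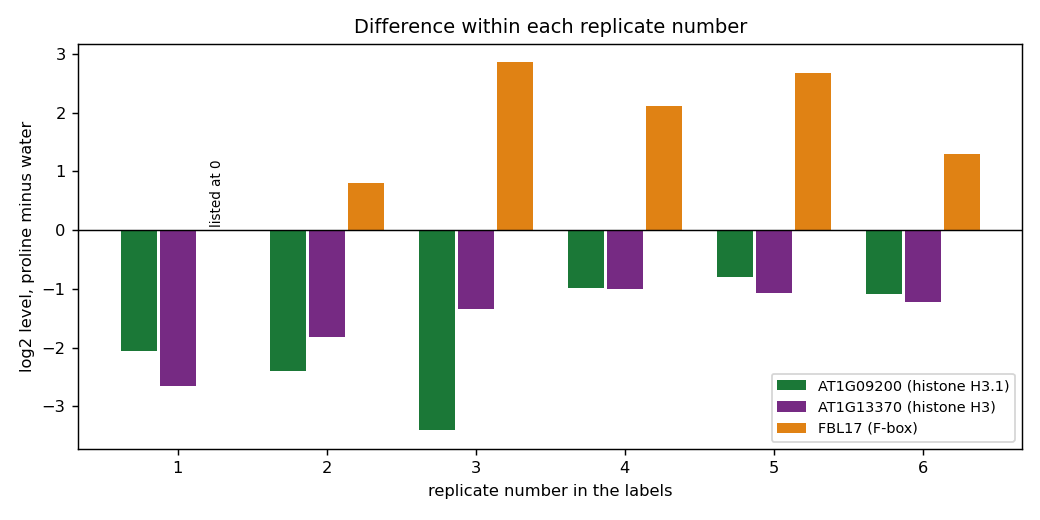
Difference of the normalized log2 level, proline minus water, within each replicate number, with 1 bar per gene. All bars of the H3 genes are below 0 (from -3.41 to -0.80) and all bars of FBL17 above 0 (from 0.81 to 2.86), and FBL17 has none in number 1, where it was listed at 0 in both groups.

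Against all features of the same number, these differences were not always extreme. In number 3, 1.94% of features had a lower difference than AT1G09200, and in number 4 it was 24.9%. For AT1G13370 the share ran from 3.80% in number 1 to 24.2% in number 4. FBL17 exceeded 98.1% of features in number 5 and 80.5% in number 2. The median difference over all features lay between -0.25 and -0.02 in the 6 numbers.

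By set, the log2 difference of AT1G09200 was -2.24 in set 1, and it was -2.20 in set 2 and -0.94 in the third. That of AT1G13370 was -2.24 in the first, -1.17 in the second and -1.15 in the third, so the H3 genes had nearly the same difference in set 1, while in set 2 that of AT1G09200 was farther from 0. FBL17 had 0.81 in the first, from number 2 only, 2.49 in the second and 1.99 in the third. Over the means of the 3 sets, AT1G09200 averaged -4.78 ± 0.87 in proline and -2.99 ± 0.14 in water (SD, n = 3 sets each). AT1G13370 averaged -4.50 ± 0.71 in proline and -2.98 ± 0.09 in water, and FBL17 -4.66 ± 0.33 in proline and -6.42 ± 1.18 in water. In water the set means of the H3 genes differed by 0.26 or less on the log2 scale, while those of FBL17 ran from -7.30 in set 2 to -5.08 in set 1.

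Relative to the other transcripts, the median log2 difference of all tested features was -0.16, and the differences of the members from that median were -1.63 for AT1G09200, -1.36 for AT1G13370 and 2.11 for FBL17. Among the 608 tested loci with a single name, AT1G09200 had the 23rd lowest difference and AT1G13370 the 31st lowest, while FBL17 had the 6th highest. The middle 90% of all tested features lay between -1.52 and 1.32.

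**Figure D4:**
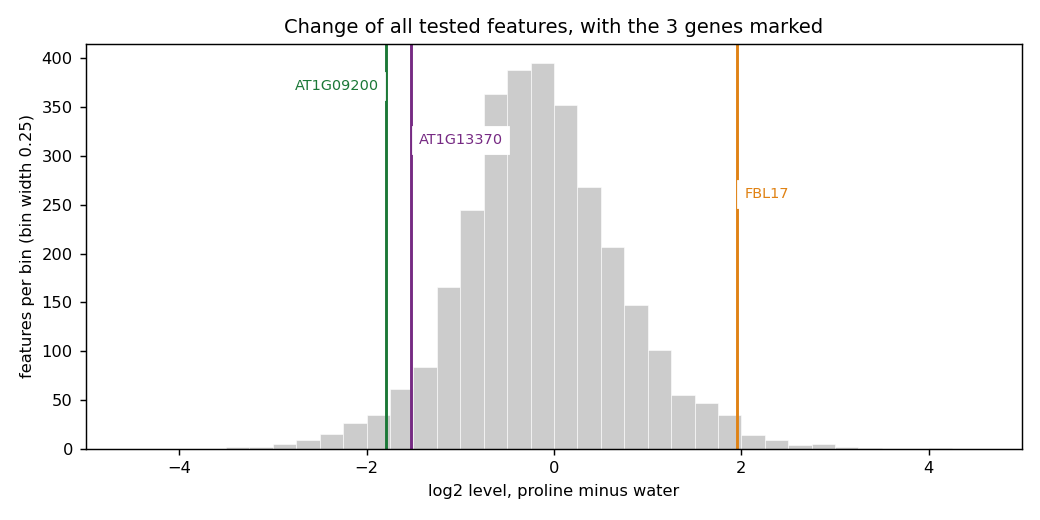
Number of tested features per bin of log2 difference, proline minus water (3045 features), with lines at the 3 genes. AT1G09200 at -1.79 and AT1G13370 at -1.52 lie in the lower tail and FBL17 at 1.95 in the upper tail of a distribution centred at -0.16.

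Few of the other genes listed for these pathways had a single-gene probe. The lists, drawn by identifier or keyword, may miss genes, and the 870 probes with several genes were not counted. Of 145 further histone and chromatin loci listed, 2 had a single-gene probe and 1 could be tested. Of 133 further loci of the cell cycle and DNA replication and 93 further loci of F-box proteins and ubiquitin ligases, none had one. Over all 3045 features, limma called 13.2% at an adjusted p under 0.05, made up of 5.52% that were higher and 7.65% that were lower with proline. With arrays centred on their median the balance turned, with 214 higher and 128 lower, as it did with cyclic loess, with 224 higher and 190 lower, against 168 higher and 233 lower here. It also turned with zeros kept (249 higher and 210 lower), over complete features (241 and 203), without normalization (17 and 3) and without set 2 (35 and 26). The 401 calls became 82 with the set as a random block, and 0 with set means in limma, where 472 features had an unadjusted p under 0.05. The tested chromatin locus, chr31 (AT1G05490), a chromatin remodelling protein of the CLASSY family that acts in RNA-directed DNA methylation, was not among the 401. Its log2 level averaged -1.10 ± 0.11 in proline samples and -1.52 ± 0.26 in water samples (SD, n = 6 each). The difference was 0.42 ± 0.18 (SE from limma, adjusted p = 0.132), with an unadjusted p of 0.0363, and was above 0 in 6 of 6 numbers.

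AT5G65360 (also called HTR1), a further locus that encodes H3.1, had too few values above 0 for the test. Its deposited intensity was 0.00485, 0.0176, 0.0176, 0.00772 and 0.00478 in proline 1, 2, 3, 5 and 6, and 0 in proline 4. In water it was 0.00405 in water 2, 0.0132 in water 3 and 0 in the other 4 samples. It was thus above 0 in 5 of 6 proline samples and 2 of 6 water samples. This difference did not pass Fisher's exact test (two-sided p = 0.242), which takes the samples as independent. The values above 0 were dim, exceeding 1.57% (water 2) to 15.2% (proline 3) of the features on their arrays. In the numbers with both values the log2 difference was above 0 in 2 of 2. With zeros kept and 0.01 added it was 0.94 higher with proline (limma, adjusted p = 0.0267, and 0.415 with set means as samples, where zeros were missing). AT1G09200, which encodes the same protein, was lower in proline samples. Probe sequences were not analysed here, so which H3.1 copies each probe reads was not tested.

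The named loci with the most similar profile were found by the root mean square difference between centred normalized log2 profiles, over the samples in which both were above 0 (at least 10). The measure contains the difference between the groups as well as the scatter within them. For AT1G13370 they were AT2G47830 (0.33 over 12 samples), CUTA (0.38 over 12), which encodes a copper-binding chloroplast protein, and AT1G68660 (0.43 over 12), a ClpS-type adaptor of the plastid Clp protease. The median of all 584 loci compared was 1.11. For AT1G09200 they were AT4G00590 (0.53 over 10 samples), AT4G17440 (0.56 over 12) and AT2G32040 (0.57 over 12), of a folate and biopterin transporter family, against a median of 1.29. AT4G00590 was listed at 0 in proline 3 and 4, so its comparison left out proline 3, the lowest sample of AT1G09200. The H3 genes differed from each other by 0.65 over 12 samples, and AT1G13370 was the 5th most similar of the loci compared with AT1G09200. FBL17, whose difference had the opposite sign, differed from AT1G09200 by 2.12 and from AT1G13370 by 1.80 over 10 samples each.

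For FBL17 the most similar loci were AT4G24930 (0.40), which encodes a protein of the thylakoid lumen, AT3G06870 (0.42) and AT1G49850 (0.45), each over 10 samples and against a median of 1.48 over 474 loci. AT4G24930 averaged -2.39 ± 0.28 in proline samples and -3.98 ± 1.05 in water samples (SD, n = 6 each). It had the same contrast of a small spread in proline and a large one in water. The choice by profile favours such a likeness, so nothing is read from it. AT1G49850 averaged -0.40 ± 0.54 in proline samples and -2.01 ± 1.23 in water samples, and AT3G06870 -0.14 ± 0.20 in proline samples and -1.18 ± 0.94 in water samples. With arrays centred on their median, chosen after seeing the data, all 3 remained for FBL17, 2 of 3 for AT1G09200 and 2 of 3 for AT1G13370.

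The direction of the differences did not depend on the settings tried. AT1G09200 lay between -2.10 and -1.34 and AT1G13370 between -1.70 and -1.18 under 17 alternatives each, and FBL17 between 1.25 and 2.28 under 16. The alternatives reuse the same samples and are no independent check. Taking the replicate number or the set as a block, or set means, leaves the differences of the H3 genes unchanged by construction. Leaving out number 3 in both groups, which holds the lowest proline sample of AT1G09200, gave -1.47 for this gene. Leaving out number 1, which holds the lowest proline sample of AT1G13370, gave -1.32 for that gene. Leaving out number 2, where the difference of FBL17 was smallest, gave 2.27 for FBL17.

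**Figure D5:**
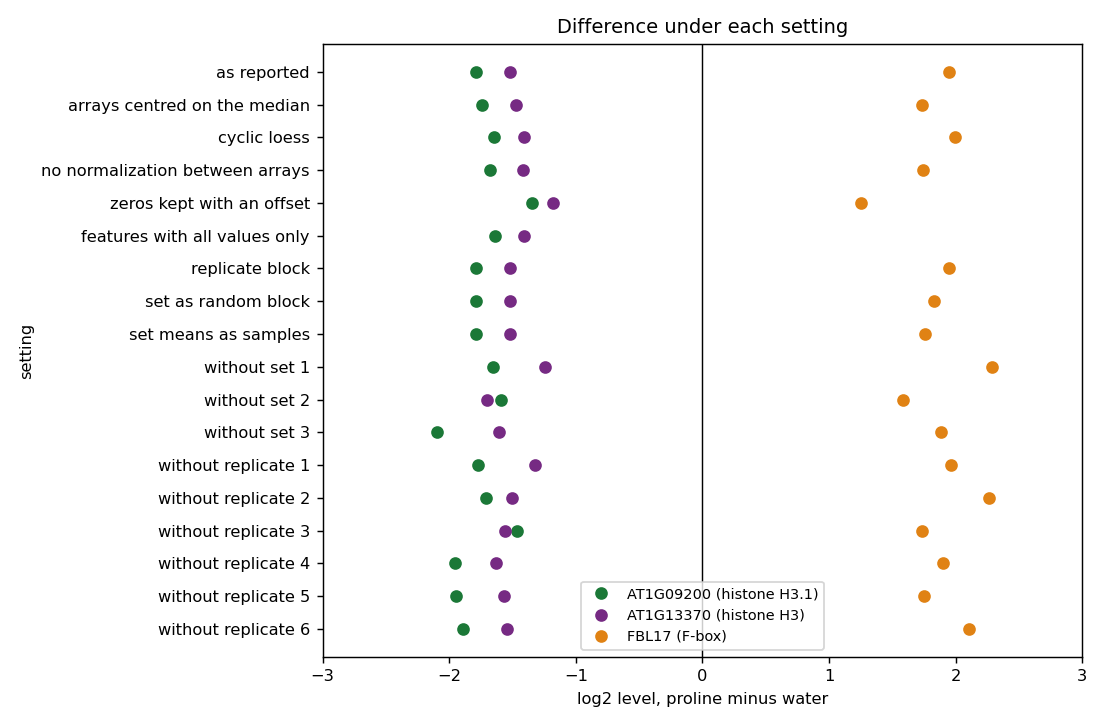
Difference of the log2 level, proline minus water, of the 3 genes under each setting, with the reported one at the top. The H3 genes stay between -2.10 and -1.18 and FBL17 between 1.25 and 2.28, and FBL17 has no value over the features with all 12 values.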

How the data were processed

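The authors deposited 1 table of array values for 12 samples (6 proline, 6 water). The unit, relative intensity on a linear scale, was read from the deposited values. The sources used here do not give the scanner, dyes, background correction or scaling. Probes were named by a platform annotation and the TAIR10.1 gene table, from which 2 of 692 single-gene identifiers were absent, and no coordinates are given because the files name no build. Values of 0 (8.43%) were treated as missing, log2 values were quantile normalized, and probes of a locus were averaged. Features with at least 4 values per group were tested with limma 3.58.1 (R 4.3.3, statmod 1.5.0), with Benjamini-Hochberg adjustment and a threshold of 0.05. The fit was run on simulated data with independent samples, which does not cover the resemblance within sets seen here. Figures used matplotlib 3.10.9.

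The members and lists were chosen with earlier results of these data known. A locus entered a list by its identifier or by a keyword in its symbol or synonyms. The named loci are the members, the measured other histone and chromatin loci, and the 3 loci with the most similar profile to each member. The alternatives were other normalizations, zeros kept, complete features, at least 5 values per group, limma's trend and robust setting, the replicate number as a block, the set as a random block, set means, and leaving out each set or number. The number of arrays limits the precision.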

Additional observations from a re-analysis of the deposited data

Results flagged for a closer look

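Values from the 14 named loci formed 27 groups. In 1 of them a sample lay farther out than a gap test at the 95% level (Dixon) allows. Chance alone marks about 1 in 20 groups of independent values, which these samples did not give, so the rate here may differ. AT1G13370 lay at -3.19 in water 1, against -2.97 in the nearest water sample, on the normalized log2 scale. The water samples of this gene were unusually close to each other, and the gap of 0.22 is small beside the difference between the groups. Without number 1 in both groups that difference was -1.32, against -1.52 with all samples.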

How the results depend on the processing

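The log2 differences of the members moved by less than the spread between replicates under the alternatives run. These numbered 17 for AT1G09200, 17 for AT1G13370 and 16 for FBL17, which has no value over complete features. That spread was the SD pooled over both groups (0.77, 0.52 and 0.81), a wide yardstick that holds the scatter described above. For the H3 genes the replicate block, the random block and set means leave the difference unchanged by construction. Leaving out each replicate number gave -1.95 to -1.47 for AT1G09200, -1.63 to -1.32 for AT1G13370 and 1.73 to 2.27 for FBL17. With the replicate block the values were -1.79, -1.52 and 1.95, unchanged by construction, and 436 features passed, against 401. Samples of the same number deviated together with a correlation of 0.0967 to 0.186 across features, each highest with its own number, a hint from the data that the numbers pair the samples.

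The count of 401 passing features was 20 with no normalization between arrays, 82 with the set as a random block (correlation 0.593), and 0 with set means in limma, where 472 had an unadjusted p under 0.05 and the smallest adjusted p was 0.0941. Fits without a set or a number still needed 4 values per group, so they tested fewer than the 3045 features. The count was 619 of 2545 without set 1, 61 of 2534 without set 2 and 265 of 2458 without set 3. It was 130 to 348, of 2872 to 2911 tested, when 1 number was left out (130, 132, 241 and 259 without numbers 3, 4, 5 and 6). The cause was not tested. Among the other histone and chromatin loci none passed, but 1 passed with zeros kept (AT5G65360, 0.0267) and 1 over complete features (chr31, adjusted p 0.0462, and 0.0462 to 0.552 over its 19 alternatives). The other 2 lists had no further locus with a single-gene probe and gave no count.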
